A study of Homo sapiens with 480 samples.

Results

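J-Lat A2 is a clone of the human Jurkat T cell leukaemia line that carries a silent, integrated HIV-derived construct, and the comparison described here set J-Lat A2 cells treated with PMA against J-Lat A2 cells treated with SAHA. The members were all wells of the 2 treatments on the 3 plates P2769, P2770 and P2771 that reached at least 0.1 of their plate's median total count and had at least 500 genes with a count. By this rule 79 of 81 PMA wells and 68 of 81 SAHA wells were kept. The whole series held 480 wells, of which 410 passed the same rule. Cells received PMA (phorbol 12-myristate 13-acetate) at 1 ug/mL, SAHA (suberoylanilide hydroxamic acid, also called vorinostat) at 1 uM, or the solvent DMSO at 0.1% v/v, each for 24 h. They were then sorted, 1 cell to a well, into 96-well plates and sequenced as full-length cDNA, and parental Jurkat cells, which lack the construct, received the same agents on the same plates. All J-Lat A2 values come from 1 clone grown in flasks, and the construct is a minimal one, so neither the diversity of integration sites nor a complete virus is represented. The labels do not state that plates hold separate cultures, so the p-values below measure only the spread between plates, which may be technical.

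Both agents are used to reactivate latent HIV, and they do so by different routes. PMA imitates diacylglycerol, the lipid messenger made when a T cell receptor is engaged, and switches on protein kinase C, which in turn activates the ERK kinases, NF-kB and the AP-1 factors. SAHA blocks the zinc-dependent histone deacetylases, so that histones and many other proteins stay acetylated. The HIV promoter carries NF-kB and Sp1 sites and is wrapped in nucleosomes, and it answers to either route.

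Plates P2769, P2770 and P2771 gave 26, 27 and 26 kept PMA wells, and 22, 24 and 22 kept SAHA wells, beside 35 kept DMSO wells in all. The lowest kept well had 0.118 of its plate median in PMA and 0.11 in SAHA, and the highest well left out had 0.0701 in PMA and 0.0917 in SAHA. The median total per kept well was 474569 counts with PMA, 555658 with SAHA and 550336 with DMSO, over medians of 4484, 4374 and 4684 genes. The median share of counts on mitochondrial genes was 3.96% with PMA, 4.94% with SAHA and 3.66% with DMSO. Counts were read counts without molecular identifiers, so the intervals and floors given here cover counting error only. Of 15 T lineage markers, 14 had counts with both agents, among them CD3D at 2304 CPM with PMA, 180.3 CPM with SAHA and 958.5 CPM with DMSO. CD4, which marks helper T cells, was listed at 0 in every kept PMA and SAHA well, which allows a share of wells with a count of up to 2.04%.

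The promoters of the leading genes in each direction that RefSeq holds are shown here because their levels under the 2 agents separate the treatments most widely. Each is the 250 bases before a start that RefSeq lists for the gene in GRCh38.p14, read 5' to 3' on the gene's own strand. The windows of MB and HDC lie inside the wider GENCODE spans given below for these genes. Capitals mark a GC box (GGGCGG), the core of an Sp1 site. MB and HDC were high with PMA, and DHRS2 and CGREF1 with SAHA. The table holds 3 starts for MB, of which the first is shown.
MB (chr22:35623355-35623604, minus strand): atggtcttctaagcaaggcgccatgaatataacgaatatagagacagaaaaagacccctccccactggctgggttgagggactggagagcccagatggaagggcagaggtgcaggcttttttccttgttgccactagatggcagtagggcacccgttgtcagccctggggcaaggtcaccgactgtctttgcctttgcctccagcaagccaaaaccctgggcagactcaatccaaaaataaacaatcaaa
HDC (chr15:50265727-50265976, minus strand): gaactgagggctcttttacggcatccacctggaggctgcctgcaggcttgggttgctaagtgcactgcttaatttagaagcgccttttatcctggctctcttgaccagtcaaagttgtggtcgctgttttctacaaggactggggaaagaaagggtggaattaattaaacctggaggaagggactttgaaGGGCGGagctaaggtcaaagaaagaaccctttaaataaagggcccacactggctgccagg
DHRS2 (chr14:23629865-23630114, plus strand): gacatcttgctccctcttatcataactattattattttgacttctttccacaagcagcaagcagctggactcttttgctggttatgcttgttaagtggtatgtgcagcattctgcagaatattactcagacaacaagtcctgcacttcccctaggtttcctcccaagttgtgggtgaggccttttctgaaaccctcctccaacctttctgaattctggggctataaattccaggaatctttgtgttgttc
CGREF1 (chr2:27119129-27119378, minus strand): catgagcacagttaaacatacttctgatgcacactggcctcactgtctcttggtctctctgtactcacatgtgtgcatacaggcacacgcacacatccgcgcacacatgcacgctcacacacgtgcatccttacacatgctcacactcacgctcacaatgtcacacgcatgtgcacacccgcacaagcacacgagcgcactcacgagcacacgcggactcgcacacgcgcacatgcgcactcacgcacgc
HDC held 1 GC box and the other promoters none. None of these windows held the AP-1 letters TGANTCA, the CRE letters TGACGTCA or the EGR letters GCGNGGGCG on either strand. Among all 27305 promoters of the same length in the table, 6.6% held the AP-1 letters, 1.77% the CRE, 42.3% the GC box and 8.25% the EGR letters, where an EGR match may overlap a GC box. Of the 304 promoters of genes called higher with PMA, 5.26% held the AP-1 letters and 59.5% the GC box, against 2.95% and 74.2% of the 271 promoters of genes called higher with SAHA, and 3.23% and 67.9% of the 8583 promoters of all genes tested. In the same order, the EGR letters were in 12.5%, 12.9% and 13.3%, and the CRE letters in 1.97%, 4.06% and 3.19%. The AP-1 letters were held by 16 promoters of the PMA set and 8 of the SAHA set. Differences between these sets were not tested. A match describes letters in a window and is not a bound site.

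The construct, listed in the deposited table as HIVmini, was read in most wells under either agent and almost nowhere without one. Summed over wells, HIVmini stood at 6761, 4667 and 6850 CPM (counts scaled to a common library size by the trimmed mean of M values) on plates P2769, P2770 and P2771 with PMA, at 10765, 17905 and 9557 CPM with SAHA, and at 0.137, 0.453 and 0 CPM with DMSO. The SAHA sums lay above the PMA sum on every plate, and the ranges did not overlap. The log2 change of PMA over SAHA was -1.01 ± 0.26 (SE, 3 plates), with an adjusted p of 0.0753 that missed the threshold of 0.05. That call depended on the setting. The adjusted p was 0.0462 without plate P2771 (log2 change -1.27) and 0.00743 when every well had equal weight (-1.05), but 0.0717 without plate P2770 (-0.55), 0.0692 without plate P2769 (-1.19) and 0.228 with DESeq2 (-1.02).

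A count for HIVmini was found in 55 of 79 PMA wells (69.6%, 95% Clopper-Pearson interval 58.2 to 79.5%) and in 51 of 68 SAHA wells (75%, 63 to 84.7%). It was found in 4 of 35 DMSO wells (11.4%, 3.2 to 26.7%), none of which rose above 2.07 CPM. With every well thinned to 100000 counts, the share was 67.5% of 77 PMA wells, 68.8% of 64 SAHA wells and 0 of 35 DMSO wells, which allows up to 8.57%. The difference in share between PMA and SAHA was -20.3, 3.24 and 0.35 percentage points on the 3 plates, with a mean of -5.56 ± 12.8 (SD, n = 3). It changed sign between plates, and the exact two-sided permutation test gave p = 1, where 3 plate pairs cannot go below 0.25.

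Within the wells, HIVmini was spread over a wide range with either agent. The highest well reached 33111 CPM with PMA and 71599 CPM with SAHA. A level over 10000 CPM was reached by 23 of 79 PMA wells (29.1%) and 31 of 68 SAHA wells (45.6%), while more than 100 CPM was reached by 62% and 66.2% of wells. Among wells above 100 CPM, the median was 9316, 7207 and 11646 CPM with PMA, against 15453, 30797 and 9620 CPM with SAHA on plates P2769, P2770 and P2771. In those wells the PMA median was thus the lower one on P2769 and P2770 and the higher one on P2771. Over all wells, those at 0 included, the difference in the plate median of log2(CPM + 1), PMA minus SAHA, was -1.57, -3.54 and -0.54, all in the same direction, with an exact two-sided permutation p of 0.25, the smallest that 3 pairs allow. Jurkat wells gave the background of the assay: 1 of 36 PMA wells, 1 of 36 SAHA wells and 2 of 18 DMSO wells held a count, none above 2.03 CPM.

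**Figure D1:**
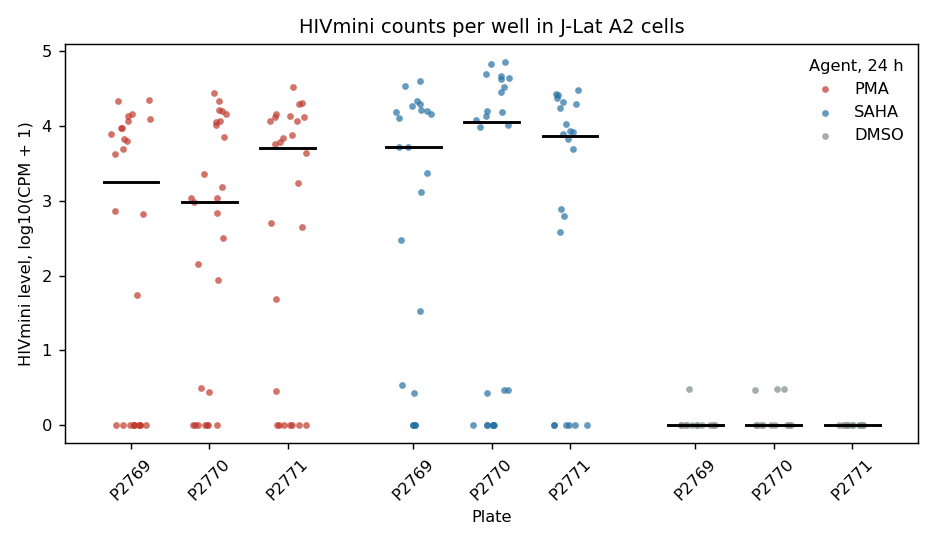
HIVmini level in each kept J-Lat A2 well, as log10(CPM + 1), by plate, for PMA, SAHA and DMSO. Points are wells and bars are plate medians. The upper cloud reaches 33111 CPM with PMA and 71599 CPM with SAHA, wells at 0 are present with every agent, and no DMSO well lies above 2.07 CPM.

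Across the transcriptome the 2 agents left the same clone in different states. Of 10570 genes tested with edgeR's quasi-likelihood test on the 6 sums, 713 (6.75%) were called at an adjusted p under 0.05. Of these, 383 (3.62%) were higher with PMA and 330 (3.12%) higher with SAHA, and each called gene kept its direction on all 3 plates. The plate values of PMA and SAHA did not overlap for 2979 genes (28.2%). The median log2 change over all tested genes was 0.046, and the called genes had a median absolute log2 change of 1.6. The counts rest on plate P2770: without it 170 genes were called (1.07% of tested genes higher with PMA, 0.514% higher with SAHA), and without plate P2771 359 genes (2.08% and 1.3%), in each case with 2 plates left. Setting the DMSO level beside the called genes, 271 of the 383 genes higher with PMA and 216 of the 330 higher with SAHA had a DMSO level between those of the 2 agents.

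**Figure D2:**
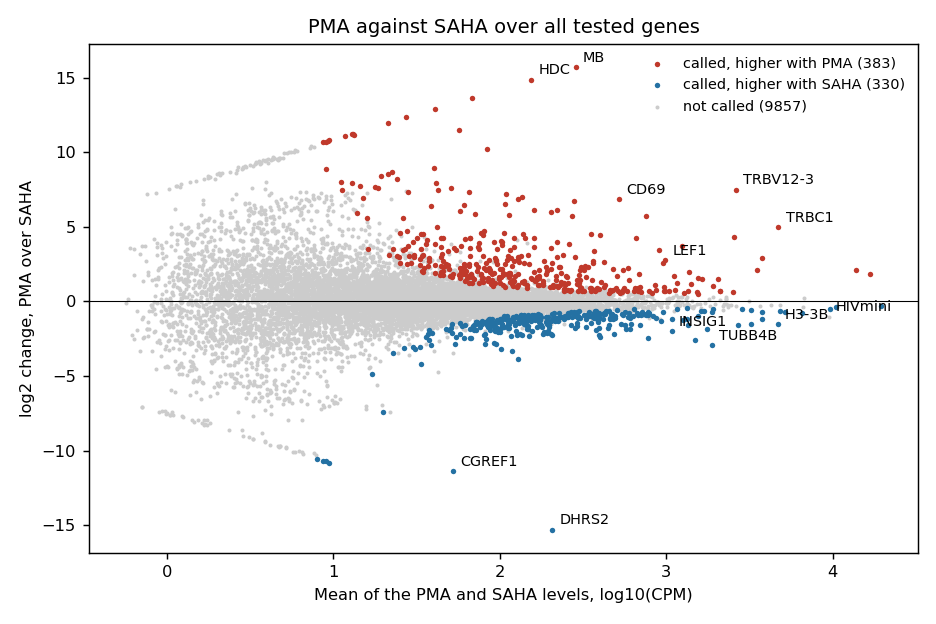
log2 change of PMA over SAHA (vertical) against the mean of the PMA and SAHA levels in log10(CPM) (horizontal) for the 10570 tested genes. Red points are the 383 genes called higher with PMA, blue points the 330 called higher with SAHA. The outer arcs are genes at 0 in one treatment, whose fitted change depends on the prior count and is no measure of size.

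MB and HDC had the largest fitted changes among the 12 genes furthest above SAHA with PMA. MB encodes myoglobin, the oxygen-binding protein of muscle, and HDC encodes histidine decarboxylase, the enzyme that makes histamine. MB (chromosome 22, 35606764 to 35637951 in GENCODE 29 coordinates of GRCh38) had 784.3, 367.9 and 563.2 CPM with PMA, against 0 on each plate with SAHA and with DMSO. HDC (chromosome 15, 50241947 to 50266026) had 146.3, 481.1 and 302.2 CPM with PMA, against 0 on each plate with SAHA and with DMSO. In J-Lat A2 cells on these plates both were thus read with PMA and not with SAHA or DMSO. Taking a floor of 3 counts over the SAHA wells, MB was at least 6463-fold higher with PMA (adjusted p = 0.000242) and HDC at least 3797-fold higher (adjusted p = 0.000396). MB had a count in 52 of 79 PMA wells and HDC in 41 of 79, against 0 of 68 SAHA wells, which allows up to 4.41%.

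PGLYRP4, a secreted peptidoglycan-binding protein of innate defence, had 49.1, 47.8 and 68.2 CPM with PMA and 0 on each plate with SAHA and DMSO, at least 639-fold higher with PMA (adjusted p = 0.00706). KRT1, a keratin of the outer skin, had 112.6, 108.3 and 118.6 CPM with PMA, against 0, 0.0826 and 0 CPM with SAHA and 0 with DMSO. The SAHA wells held 1 KRT1 count, so the ratio of 3954 has a 95% counting interval from 709 to 156195. GPR183, a receptor for oxysterols that guides lymphocytes, had 74.2, 242.4 and 186.1 CPM with PMA, against 0, 0 and 0.418 CPM with SAHA (log2 change 10.21 ± 0.77, adjusted p = 0.000831). All of these groups were apart on every plate. TIMP1, an inhibitor of matrix metalloproteinases, averaged 80.7 ± 31 CPM with PMA and 0.223 ± 0.386 CPM with SAHA (SD, n = 3 each, adjusted p = 0.0045), and CD40LG, the ligand by which helper T cells stimulate B cells, averaged 42.6 ± 20.2 and 0.138 ± 0.238 CPM (adjusted p = 0.0173).

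STAT5A and STAT5B, a pair of neighbouring genes for the transcription factors that act below the IL-2 receptor, were also high with PMA. STAT5A had 24.1, 157.9 and 63.5 CPM with PMA and 0 with SAHA, at least 1031-fold higher (adjusted p = 0.00363), and STAT5B had 28, 72.4 and 35.2 CPM against 0.365, 0 and 0 CPM (log2 change 8.70 ± 1.39, adjusted p = 0.016). Their coding sequences are close copies of each other, so reads may be divided between them with error. SEMA4A, a semaphorin of immune cells, was at least 534-fold higher with PMA (adjusted p = 0.0111). CD226, an activating receptor, averaged 47.9 ± 27.6 CPM with PMA and 0.275 ± 0.477 CPM with SAHA (adjusted p = 0.0137). PVRIG, an inhibitory receptor of the same family of ligands, averaged 81.5 ± 21.3 CPM with PMA, 0.752 ± 1.3 CPM with SAHA and 141.7 ± 60.6 CPM with DMSO (adjusted p = 0.0292), so that the SAHA level stood below both others. Without plate P2770 the calls of STAT5A, STAT5B, SEMA4A, CD226 and PVRIG were lost, with adjusted p between 0.0511 and 0.141. PVRIG lies inside STAG3 on the same strand, and GPR183 and TIMP1 overlap UBAC2 and SYN1 on the opposite strand, and the library kit does not mark strand, so reads of such pairs cannot be told apart by strand. The same limit holds for CD226, CGREF1, IFIT1, PABIR2, CAST, TUBB4B, IL16, LCP2, DGKA, H3-3B, NCOR1, CBX3, NELFE, PSMB8, TPI1, TM7SF2, SLC1A5, TCP1 and ZYX, each of which overlaps another gene.

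At the other end, DHRS2 encodes a mitochondrial short-chain dehydrogenase known as a target of histone deacetylase inhibitors, and CGREF1 a secreted growth regulator with calcium-binding EF-hand motifs. DHRS2 (chromosome 14, 23630115 to 23645639) had 0 counts on each plate with PMA, against 451.5, 746.7 and 42.4 CPM with SAHA and 0 with DMSO. It was at least 4913-fold higher with SAHA over a floor of 3 counts in the PMA wells (adjusted p = 0.000364). Its counts came from 16 of 68 SAHA wells, and 37.2% of them from 1 well, so most SAHA wells gave none. CGREF1 (chromosome 2, 27098889 to 27119115) had 0.0949, 0 and 0 CPM with PMA, against 96.3, 130.1 and 89.4 CPM with SAHA (adjusted p = 0.000484). With 1 count in the PMA wells, the ratio of SAHA over PMA was 3763, with a 95% counting interval from 675 to 148681. CGREF1 was read in 1 of 79 PMA wells and 39 of 68 SAHA wells, or 1.3% and 54.7% after thinning.

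The other genes furthest towards SAHA had smaller changes and were expressed under both agents. TUBB4B, a beta tubulin, had 503.2, 322.7 and 486.0 CPM with PMA, against 3112, 3519 and 3296 CPM with SAHA and a mean of 591.0 CPM with DMSO (log2 change -2.93 ± 0.18, adjusted p = 0.000396). CLU, the secreted chaperone clusterin, averaged 7.12 ± 2.36 CPM with PMA and 59.1 ± 15 CPM with SAHA (adjusted p = 0.0144). CAMK4, a calcium/calmodulin-dependent kinase of T cells, averaged 24.8 ± 23.5 CPM with PMA and 234.0 ± 105.3 CPM with SAHA (adjusted p = 0.0159). WASF1, an actin-regulating WAVE protein, averaged 24.1 ± 19.4 and 180.2 ± 33.8 CPM (adjusted p = 0.0186). TUBB4B kept its call under every alternative tried, but those of CLU, CAMK4 and WASF1 were lost without plate P2770, with adjusted p from 0.0644 to 0.0828, that of CLU also without plate P2771 (0.0681) and that of CAMK4 without the plate block (0.0735).

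The other 6 of the 12 genes furthest towards SAHA were IFIT1 (log2 change -4.22), CSRP2 (-3.46), CEP112 (-3.32), PABIR2 (-3.09), ASMTL (-3.06) and CAST (-2.94). IFIT1 is an interferon-induced RNA-binding protein, CSRP2 a LIM-domain protein, CEP112 a centrosomal protein and CAST the calpain inhibitor calpastatin. Their adjusted p ranged from 0.0149 for CAST to 0.0377 for PABIR2. All 6 lost the call without plate P2770 (adjusted p from 0.0945 to 0.16), and IFIT1, CSRP2, PABIR2, ASMTL and CAST also without plate P2771 (0.073 to 0.111), while CSRP2 and PABIR2 lost it without plate P2769 (0.0545 and 0.0746). IFIT1 and CEP112 were not called without the plate block either (0.0967 and 0.0625).

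**Figure D3:**
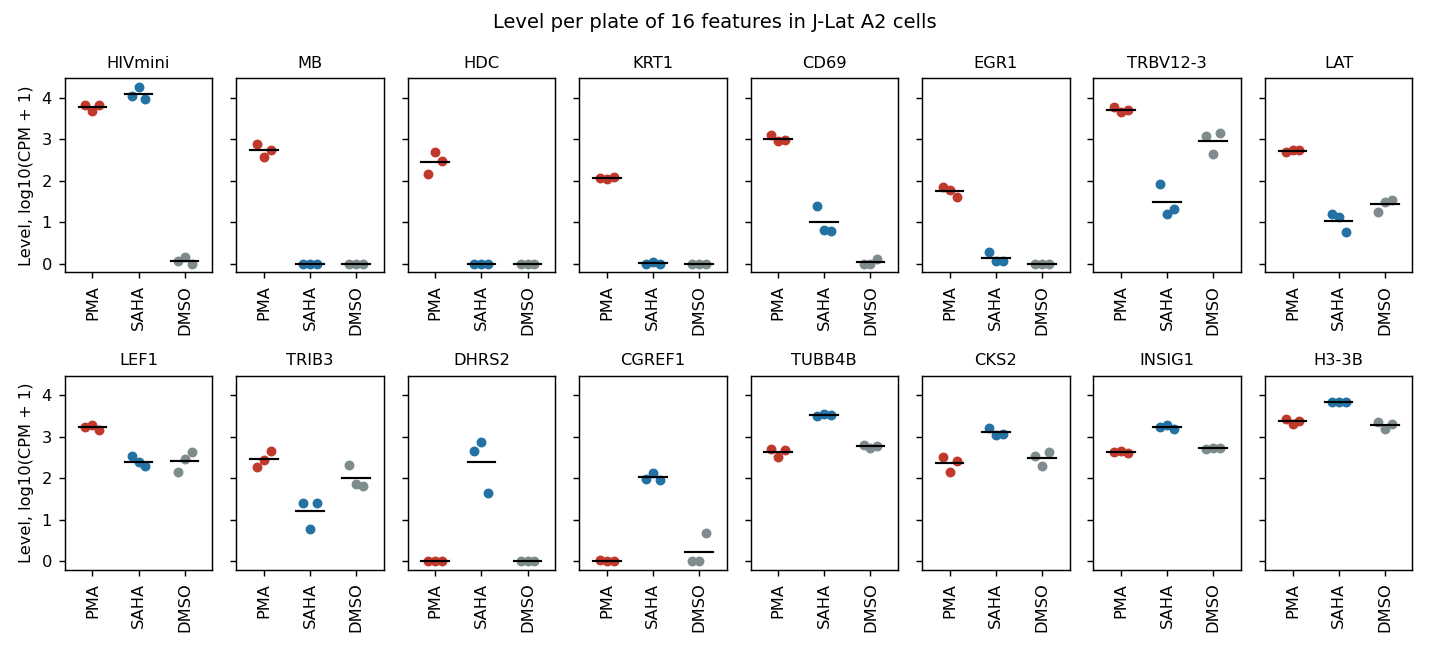
Level of 16 features on each of the 3 plates, as log10(CPM + 1), for PMA, SAHA and DMSO in J-Lat A2 cells. Points are plates in the order P2769, P2770, P2771 and bars are means. MB and HDC are at 0 with SAHA and DMSO, DHRS2 is at 0 with PMA and DMSO, and HIVmini lies higher with SAHA than with PMA on each plate.

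Genes of the T cell receptor had the largest called share among the lists with at least 10 tested members. Of 10 tested members of the T cell receptor chain and CD3 list, 9 were called, all higher with PMA, where 3.62% of all tested genes were called in that direction, and the median log2 change was 4.0 against 0.046 over all genes. TRBC1 encodes the constant part of the receptor beta chain, and TRBV12-3 the variable segment that Jurkat cells use. TRBC1 had 10387, 7880 and 8980 CPM with PMA, against 568.4, 210.4 and 209.8 CPM with SAHA and a mean of 1952 CPM with DMSO (log2 change 4.97 ± 0.26, adjusted p = 0.000254). TRBV12-3 had 6078, 4550 and 4981 CPM with PMA, against 81.2, 14.9 and 19.6 CPM with SAHA and a mean of 1025 CPM with DMSO (log2 change 7.50 ± 0.47, adjusted p = 0.000396). For both genes DMSO lay between the agents, with every plate of PMA above and every plate of SAHA below the DMSO mean. TRAC, the constant part of the alpha chain, averaged 395.0 ± 90.4 CPM with PMA and 8.83 ± 8.88 CPM with SAHA (adjusted p = 0.00287), with 14.6 CPM under DMSO, and TRAV8-4, its variable segment, averaged 222.5 ± 51 and 5.2 ± 5.16 CPM (adjusted p = 0.00208). TRBC1 and TRBC2 are near-identical, so the split of reads between them is uncertain.

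The same held in single wells. The summed level of the 11 chain and CD3 genes had a median of 18440 CPM over PMA wells (range 3032 to 39412), 568.5 CPM over SAHA wells (110.2 to 2668) and 4201 CPM over DMSO wells. The PMA and SAHA wells did not overlap in this sum. Of 10 tested members the exception was CD247, the zeta chain, at 47.8 CPM with PMA and 10.8 CPM with SAHA (adjusted p = 0.163).

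Proximal signalling proteins, which relay the signal from the receptor, leaned the same way. Of 37 tested members 13 were called, all higher with PMA, and the median log2 change was 1.95. LAT, the membrane scaffold of the pathway, had 491.6, 560.2 and 536.5 CPM with PMA, against 15, 12.1 and 4.93 CPM with SAHA and a mean of 26.7 CPM with DMSO (log2 change 5.76 ± 0.38, adjusted p = 0.000409). LCP2, the adaptor SLP-76, had 172.1, 173.2 and 119.2 CPM with PMA, against 6.02, 5.37 and 6.19 CPM with SAHA (log2 change 4.72 ± 0.32, adjusted p = 0.000484). PTPRCAP, which binds the CD45 phosphatase, averaged 432.4 ± 38.7 CPM with PMA, 7 ± 4.59 CPM with SAHA and 155.9 ± 47 CPM with DMSO (adjusted p = 0.00207). LAT and LCP2 had DMSO means nearer to SAHA than to PMA, whereas PTPRCAP and SLA, a brake on receptor signalling, had DMSO levels far above it. SLA averaged 211.3 ± 49.5 CPM with PMA, 3.07 ± 2.73 CPM with SAHA and 155.4 ± 45 CPM with DMSO (adjusted p = 0.00926, and 0.0735 without plate P2770). PTPRCAP overlaps CORO1B on the same strand and SLA lies within TG on the opposite strand. The summed level of the list ran from 2753 to 9618 CPM over PMA wells and from 0 to 1845 CPM over SAHA wells, again without overlap.

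Of 24 tested protein kinase C isoforms and diacylglycerol sensors, the direct targets of PMA and the enzymes around them, 1 was called. DGKA, a diacylglycerol kinase that ends the signal, had 439.3, 554.4 and 510 CPM with PMA, against 37.9, 91.7 and 70.4 CPM with SAHA and a mean of 80.7 CPM with DMSO (log2 change 3.01 ± 0.23, adjusted p = 0.000826). In this list the called share of 1 in 24 was near that of all genes, and its median log2 change was 0.76.

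Immediate early factors, which answer first to ERK and calcium signals, were called for 3 of 19 tested members, all higher with PMA. The median log2 change was 2.01, and 3.62% of all tested genes were called higher with PMA. EGR1, a zinc-finger factor induced by ERK, had 70.5, 59.8 and 38.3 CPM with PMA, against 0.912, 0.165 and 0.167 CPM with SAHA and 0 with DMSO (log2 change 7.35 ± 0.77, adjusted p = 0.00321). IER2, another early response factor, had 615.1, 710.5 and 708.3 CPM with PMA, against 24.4, 30.8 and 36.6 CPM with SAHA and a mean of 44.9 CPM with DMSO (log2 change 4.50 ± 0.17, adjusted p = 7.14e-05). IER2 was read in all 79 PMA wells and in 29 of 68 SAHA wells. The third was BHLHE40, at 18.2 CPM with PMA, 0 with SAHA and 10.6 CPM with DMSO (adjusted p = 0.0418), and FOS, the partner of JUN in AP-1, was at 18.5 CPM with PMA and 12 CPM with SAHA (adjusted p = 0.569). BHLHE40 and FOS were chosen for mention after their values were seen.

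Surface markers of activation gave 12 called genes of 21 tested, 9 higher with PMA and 3 higher with SAHA (median log2 change 2.30). CD69, the classic early activation marker, had 1232, 922.0 and 945.0 CPM with PMA, against 23.6, 5.45 and 5.02 CPM with SAHA and a mean of 0.107 CPM with DMSO (log2 change 6.86 ± 0.44, adjusted p = 0.000396). CD69 was read in 72 of 79 PMA wells and 11 of 68 SAHA wells, or 89.6% and 14.1% after thinning. IL2RA, the alpha chain of the IL-2 receptor, had 146.3, 56.1 and 158.5 CPM with PMA, against 0, 5.86 and 1.17 CPM with SAHA and 0 with DMSO (log2 change 6.44 ± 1.38, adjusted p = 0.0419). Its call was lost without plate P2771 (adjusted p = 0.137). Leaving out P2770 or P2771 gave 7 calls higher with PMA and 1 higher with SAHA in this list. The 3 genes higher with SAHA, named after their values were seen, were CXCR4, the chemokine receptor that also serves HIV as a coreceptor, ITGB1, the beta-1 integrin, and CD47. CXCR4 averaged 136.9 ± 45.4 CPM with PMA, 652.1 ± 219.1 CPM with SAHA and 576.5 ± 160.8 CPM with DMSO (log2 change -2.23 ± 0.14, adjusted p = 0.000396).

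Feedback regulators of ERK were called for 3 of 14 tested members, all higher with PMA, beside 3.62% of all tested genes. The list had a median log2 change of 1.83. DUSP2, a nuclear phosphatase that switches ERK off, had 309.5, 219.0 and 85.3 CPM with PMA, against 4.1, 15.6 and 5.68 CPM with SAHA (log2 change 4.61 ± 0.55, adjusted p = 0.00543). DUSP6, its cytoplasmic counterpart, had 65.2, 96.6 and 222.8 CPM with PMA, against 0, 0 and 7.61 CPM with SAHA (adjusted p = 0.0186). RGS16, a brake on G protein signalling, averaged 61.7 ± 52.2 CPM with PMA and 7.75 ± 7.2 CPM with SAHA (adjusted p = 0.012). The calls of DUSP6 and RGS16 rest on plate P2770 and on the pairing by plate: their adjusted p were 0.0836 and 0.175 without that plate, and 0.0685 and 0.103 without the plate block. Every plate had more of each of the 3 transcripts with PMA.

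NF-kB subunits, inhibitors and targets were called for 4 of 15 tested members, all higher with PMA, beside 3.62% of all tested genes. The list had a median log2 change of 1.43. CFLAR, which blocks caspase-8, had 84.7, 94.9 and 148.2 CPM with PMA, against 9.49, 7.6 and 7.61 CPM with SAHA (log2 change 3.71 ± 0.39, adjusted p = 0.00321). TNFAIP3, the ubiquitin-editing inhibitor A20, averaged 78.3 ± 9.47 CPM with PMA and 10.2 ± 3.55 CPM with SAHA (adjusted p = 0.00869), and TNFAIP8 averaged 362.3 ± 39.3 and 105.99 ± 50.4 CPM (adjusted p = 0.0133). NFKBIA, the inhibitor that holds NF-kB in the cytoplasm, averaged 60.6 ± 23.8 CPM with PMA and 13.4 ± 10.4 CPM with SAHA (adjusted p = 0.0377). Called members were thus inhibitors and targets, while the subunits NFKB1 and RELA were at 27.6 and 33 CPM with PMA and 2.74 and 27.4 CPM with SAHA (adjusted p = 0.329 and 0.9, both named after their values were seen). Without plate P2770 the adjusted p was 0.07 for TNFAIP3, 0.0873 for TNFAIP8 and 0.117 for NFKBIA, and NFKBIA was not called without either other plate (0.0996 and 0.123) or without the plate block (0.0902).

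Secreted factors were mostly too low to test. Of 25 listed cytokines and effectors 8 were tested. Of these, 2 were called higher with PMA and 1 higher with SAHA, beside 3.62% and 3.12% of all tested genes. IL16, a chemoattractant for CD4 cells, had 214.9, 234.5 and 190.98 CPM with PMA, against 0.547, 0 and 10.8 CPM with SAHA (log2 change 7.19 ± 1.30, adjusted p = 0.024, and 0.0857 without plate P2770). TIMP1, described above, was the other. SPP1, or osteopontin, named after its value was seen, averaged 16 CPM with SAHA and 0 with PMA and DMSO (adjusted p = 0.0494). In the STAT and JAK list 3 of 18 were called, all higher with PMA, beside 3.62% of all tested genes. They were STAT5A and STAT5B above, and STAT3, which averaged 244.0 ± 40 CPM with PMA, 75.3 ± 51 CPM with SAHA and 25.5 ± 13.9 CPM with DMSO (adjusted p = 0.023). STAT3 was not called without plate P2770 or P2771 (adjusted p = 0.0592 and 0.0563) or without the plate block (0.0793).

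Genes of early thymocytes and of V(D)J recombination, which Jurkat cells keep from their leukaemic origin, were called for 7 of 28 tested members, all higher with PMA (median log2 change 1.77). That count fell to 2 without plate P2770 and to 3 without plate P2771, where 1 further member was called higher with SAHA. LEF1, the transcription factor that acts with beta-catenin in T cell development, had 1764, 1889 and 1496 CPM with PMA, against 340.4, 248.0 and 192.6 CPM with SAHA and a mean of 286.2 CPM with DMSO (log2 change 2.77 ± 0.16, adjusted p = 0.000338). CD1C, a lipid-presenting molecule, had 101.1, 111.6 and 89.5 CPM with PMA, against 0, 5.37 and 0 CPM with SAHA and a mean of 23 CPM with DMSO (adjusted p = 0.0309). HHEX and IKZF1, both regulators of lymphoid progenitors, averaged 66.1 ± 23 and 77.1 ± 20.7 CPM with PMA, against 8.88 ± 2.41 and 14.4 ± 9.42 CPM with SAHA (adjusted p = 0.0255 and 0.0362). LEF1 alone of these 4 kept its call in every alternative. CD1C was not called without plate P2771 (adjusted p = 0.0533), HHEX without P2770 or P2771 (0.0715 and 0.144) and IKZF1 without P2769 or P2770 (0.0717 and 0.118). CD1C and IKZF1 were not called without the plate block (0.0539 and 0.0637).

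Direction against DMSO differed within this list. IGLL1, part of the surrogate light chain of lymphoid precursors, was at 78.4 CPM with PMA and 15.7 CPM with SAHA (adjusted p = 0.014) but at 1156 CPM with DMSO, so the means of both agents lay far below that of the solvent. RAG2, a subunit of the V(D)J recombinase, was at 1.09 CPM with PMA, 42.7 CPM with SAHA and 47.2 CPM with DMSO, and its adjusted p of 0.0552 missed the threshold. IGLL1 and RAG2 were named after their values were seen.

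Textbook responders to histone deacetylase inhibitors were called for 6 of 25 tested members, 5 higher with SAHA, where 3.12% of all tested genes were called in that direction, and 1 higher with PMA (median log2 change -1.02). Those higher with SAHA numbered 3 without plate P2770 and 2 without plate P2771. ID2, an inhibitor of helix-loop-helix factors, averaged 37.4 ± 10 CPM with PMA, 150.1 ± 40.2 CPM with SAHA and 12.2 ± 11.4 CPM with DMSO (adjusted p = 0.0229). It was not called without plate P2769 or P2771 (adjusted p = 0.0516 and 0.104). DHRS2 and CLU, described above, and MT1X, a metallothionein (adjusted p = 0.0388), were also among those higher with SAHA. TYMS, thymidylate synthase, was the gene higher with PMA, at 905.7 CPM against 476.5 CPM with SAHA and 1285 CPM with DMSO (adjusted p = 0.012).

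CDKN1A, the cell cycle inhibitor p21 and the textbook target of such drugs, did not pass the test: it averaged 6.58 CPM with PMA, 27.6 CPM with SAHA and 0.504 CPM with DMSO (adjusted p = 0.238). TUBB3, a neuronal beta tubulin, averaged 5.22 CPM with PMA, 80.4 CPM with SAHA and 0 with DMSO (adjusted p = 0.0833). MT1X, TYMS, CDKN1A and TUBB3 were named after their values were seen. Of 17 tested neuronal and synaptic genes, 1 was called, TUBB2A, which also belongs to the tubulins. By edgeR this share is near the 6.75% called over all tested genes, and 0 were called without plate P2770. At an unadjusted p under 0.05, 6 of the 17 were higher with SAHA and 0 higher with PMA. Over the 10570 tested genes these numbers were 1127 and 1148. DESeq2 called 6 of the 17, all higher with SAHA, where it called 8.83% of all tested genes in that direction.

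The list of alpha and beta tubulins, the building blocks of microtubules, also held gamma, delta and epsilon tubulins and tubulin folding cofactors. Of its 18 tested members 7 were called, all higher with SAHA (median log2 change -1.09). Over all tested genes 3.12% were called in that direction. Without plate P2770, 3 of the 18 were called. Besides TUBB4B, TUBB2A had 16.5, 25.6 and 28.3 CPM with PMA, against 176.03, 185.8 and 139.8 CPM with SAHA and a mean of 26.5 CPM with DMSO (log2 change -2.84 ± 0.31, adjusted p = 0.0036). TUBA1A had 823.4, 668.3 and 740.6 CPM with PMA, against 2867, 2626 and 2738 CPM with SAHA and a mean of 438.0 CPM with DMSO (log2 change -1.87 ± 0.10, adjusted p = 0.000273). TUBA1C averaged 324.5 ± 126.5 CPM with PMA and 902.9 ± 229.3 CPM with SAHA (adjusted p = 0.0146). TUBB2A and TUBB4B were near their PMA level under DMSO. Leaving out plate P2770 gave adjusted p of 0.0505 for TUBB2A and 0.053 for TUBA1C. Tubulin genes share long stretches of sequence and TUBA1A overlaps TUBA1C on the opposite strand, so the split of reads among them is uncertain.

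Linker and replacement histones were called for 5 of 16 tested members. Of these, 4 were higher with SAHA and 1 higher with PMA, beside 3.12% and 3.62% of all tested genes. H3-3B, a gene for the replacement histone H3.3, had 2665, 2066 and 2477 CPM with PMA, against 6926, 6779 and 7109 CPM with SAHA and a mean of 1961 CPM with DMSO (log2 change -1.52 ± 0.10, adjusted p = 0.000396). H2AZ2, a gene for the variant H2A.Z, averaged 174.5 ± 52.3 CPM with PMA and 613.3 ± 272.1 CPM with SAHA (adjusted p = 0.00361). MACROH2A1, whose product marks silent chromatin, went the other way, with 617.1, 613.6 and 400.5 CPM with PMA, against 109.1, 98.1 and 102.2 CPM with SAHA and a mean of 231.8 CPM with DMSO (log2 change 2.39 ± 0.19, adjusted p = 0.00102).

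The lists of enzymes that SAHA inhibits, and of factors usually set between HIV and its silence, held no call by this test. Over all tested genes 6.75% were called, a share at which lists of this size would hold few calls. An unadjusted p under 0.05 was reached by 2275 of the 10570 tested genes, and DESeq2 called 18.6% of them. None of 27 histone deacetylases and sirtuins was called by edgeR, with 8 at an unadjusted p under 0.05 and 7 called by DESeq2. HDAC2 averaged 566.7 ± 74.2 CPM with PMA and 392.5 ± 28.5 CPM with SAHA (log2 change 0.54 ± 0.13, adjusted p = 0.0558). NCOR1, a corepressor that carries HDAC3 and was listed with these enzymes, averaged 381.0 ± 19.1 CPM with PMA and 250.9 ± 34.6 CPM with SAHA (log2 change 0.63 ± 0.15, adjusted p = 0.0544). None of 29 repressors linked to provirus silencing was called by edgeR, with 3 at an unadjusted p under 0.05 and 1 called by DESeq2. CBX3, the heterochromatin protein HP1 gamma, averaged 441.3 ± 43.2 CPM with PMA and 468.9 ± 106.1 CPM with SAHA, and SUPT16H of the FACT complex had a log2 change of 0.20 ± 0.20. None of 26 P-TEFb, 7SK and elongation genes was called by edgeR, with 4 at an unadjusted p under 0.05 and 3 called by DESeq2, all 3 higher with SAHA. NELFE, a subunit of the pausing factor NELF, averaged 250.1 ± 28.5 CPM with PMA and 383.4 ± 73 CPM with SAHA (log2 change -0.59 ± 0.15, adjusted p = 0.0711). The elongation factor TCEA1 had a log2 change of -0.09 ± 0.18. HDAC2, NCOR1 and NELFE lay near the threshold and were called by DESeq2 (adjusted p from 0.00244 to 0.00797).

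Of 17 tested host restriction factors against HIV, 2 were called, both higher with PMA (median log2 change 2.51), beside 3.62% of all tested genes. IFITM2, a membrane protein that hinders viral entry, had 98.1, 75.4 and 69 CPM with PMA, against 12.5, 5.04 and 10.6 CPM with SAHA (log2 change 3.20 ± 0.44, adjusted p = 0.00947). IFI16, a sensor of viral DNA, had 246.3, 271.3 and 263.4 CPM with PMA, against 79.9, 68 and 97.6 CPM with SAHA and a mean of 396.6 CPM with DMSO (log2 change 1.70 ± 0.20, adjusted p = 0.00541). Among 30 interferon-stimulated genes and IRFs 3 were called, 2 higher with PMA and 1 higher with SAHA, which is not far from the 3.62% and 3.12% over all tested genes. They were HLA-E and the immunoproteasome subunit PSMB8 higher with PMA (adjusted p = 0.0066 and 0.0306), and IFIT1, above, higher with SAHA. All 4 of IFITM2, IFI16, HLA-E and PSMB8 lost the call without plate P2770 (adjusted p from 0.0526 to 0.152), as did IFIT1, so that neither list held a call without it. PSMB8 was not called without the plate block (0.0742). IFITM2 overlaps IFITM1 on the same strand.

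Genes of G2 and M phase, which build and run the mitotic spindle, were higher with SAHA as a group. Of 60 tested members 29 were called, all higher with SAHA, and 59 of 60 had a negative log2 change (median -1.25). The count rests on plate P2770: 7 of the 60 were called without it (median -0.92), 30 without P2769 or P2771, and 20 without the plate block. CKS2, a small partner of the cyclin-dependent kinases, had 319.6, 137.5 and 266.8 CPM with PMA, against 1670, 1098 and 1144 CPM with SAHA and a mean of 327.5 CPM with DMSO (log2 change -2.48 ± 0.19, adjusted p = 0.000981). CKAP2, a spindle protein, had 149.01, 117.7 and 122.1 CPM with PMA, against 704.4, 733.8 and 578.3 CPM with SAHA and a mean of 165.1 CPM with DMSO (log2 change -2.36 ± 0.16, adjusted p = 0.000434). PRC1, which bundles the microtubules of the midzone, had 40, 42.5 and 51.1 CPM with PMA, against 200.8, 216.2 and 215.9 CPM with SAHA and a mean of 133.5 CPM with DMSO (log2 change -2.23 ± 0.21, adjusted p = 0.00207). For each of these the 2 agents were apart on every plate. UBE2S, the ubiquitin chain elongator of the anaphase-promoting complex, averaged 21.1 ± 1.98 CPM with PMA and 94.9 ± 8.45 CPM with SAHA (adjusted p = 0.0124, and 0.0912 without plate P2770) and overlaps RPL28 on the opposite strand. The kinase CDK1 averaged 555.3 CPM with PMA and 1176 CPM with SAHA (adjusted p = 0.0165, named after its value was seen). With DESeq2, 48 of the 60 were called higher with SAHA and 1 higher with PMA.

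Wells showed what the sums average over. The summed G2 and M level had a median of 4309 CPM over PMA wells, 22505 CPM over SAHA wells and 11794 CPM over DMSO wells. PMA wells ran from 289 to 45208 CPM, SAHA wells from 4483 to 41266 CPM and DMSO wells from 3589 to 29681 CPM, so the PMA wells reached as high as the others and much lower. Below the lowest DMSO well lay 39 of 79 PMA wells (49.4%), with 12, 15 and 12 on the 3 plates, and 0 of 68 SAHA wells, which allows up to 4.41%. This limit was chosen after the values were seen. Above the highest DMSO well lay 8 PMA wells (10.1%) and 10 SAHA wells (14.7%).

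**Figure D4:**
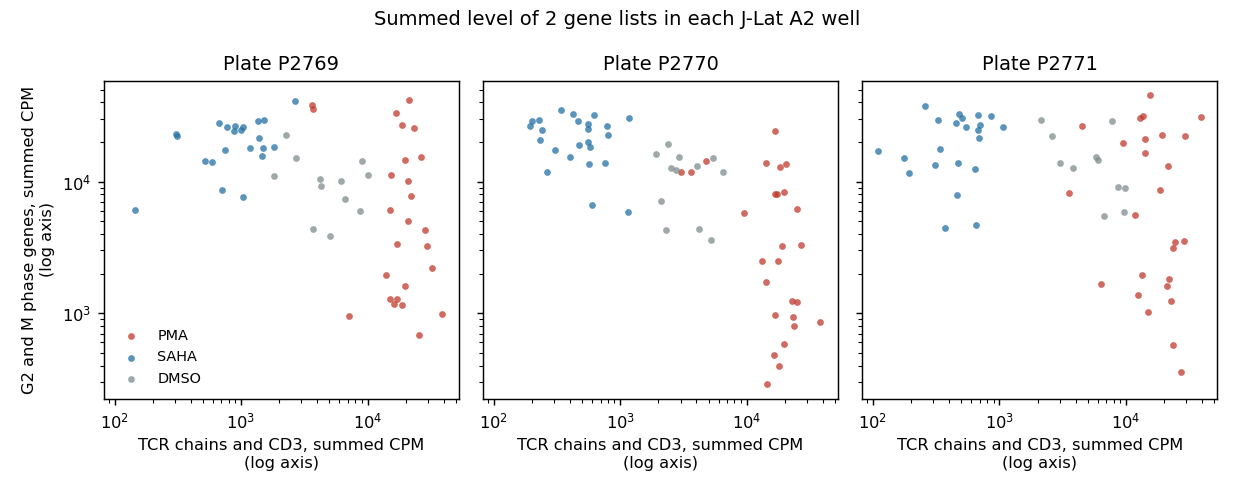
Summed level of the G2 and M phase genes (vertical, CPM, log axis) against that of the T cell receptor chain and CD3 genes (horizontal, CPM, log axis) in each kept J-Lat A2 well, 1 panel a plate. PMA wells (red) lie at 3032 to 39412 CPM on the horizontal axis and SAHA wells (blue) at 110 to 2668 CPM, and the PMA wells alone extend below 3589 CPM on the vertical axis.

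S phase genes were split. Of 46 tested members 3 were called higher with PMA and 4 higher with SAHA (median log2 change -0.08), beside 3.62% and 3.12% of all tested genes. Without plate P2770 the counts in the list were 0 and 1, without P2771 1 and 2, and without the plate block 2 and 2. MCM5, a subunit of the replicative helicase, had 230.4, 237.8 and 211.4 CPM with PMA, against 49.5, 105.9 and 90 CPM with SAHA and a mean of 327.2 CPM with DMSO (log2 change 1.55 ± 0.27, adjusted p = 0.0198). TK1, thymidine kinase, averaged 58.4 ± 15.7 CPM with PMA and 166.2 ± 21.9 CPM with SAHA (adjusted p = 0.012), GMNN, the licensing inhibitor geminin, 187.7 ± 35.2 and 520.99 ± 57 CPM (adjusted p = 0.00892), and CLSPN, the checkpoint adaptor claspin, 59 ± 18 and 143.5 ± 58 CPM (adjusted p = 0.028). Each of the 4 lost its call without plate P2770 (adjusted p from 0.0514 to 0.151), TK1 and CLSPN also without P2771 (0.0659 and 0.0893), and CLSPN without P2769 (0.0909) or the plate block (0.103). In single wells the summed S phase level was below the lowest DMSO well in 37 of 79 PMA wells and 1 of 68 SAHA wells. None of 19 CDK inhibitors and G1 cyclins was called by edgeR, with 1 at an unadjusted p under 0.05 and 2 called by DESeq2, and CDK6 averaged 654.5 ± 111.7 CPM with PMA and 621.1 ± 144.3 CPM with SAHA.

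Serine, asparagine and ATF4 stress genes were called for 7 of 27 tested members, all higher with PMA (median log2 change 0.85). Leaving out plate P2770 left 1 call in the list, and leaving out P2771 left 3. TRIB3, a pseudokinase induced by ATF4, had 190.9, 277.7 and 443.7 CPM with PMA, against 24.4, 5.12 and 25.1 CPM with SAHA and a mean of 115.99 CPM with DMSO (log2 change 4.26 ± 0.54, adjusted p = 0.00696). SLC3A2, the heavy chain of amino acid transporters, had 541.2, 1090 and 1051 CPM with PMA, against 257.4, 160.3 and 185.3 CPM with SAHA and a mean of 681.5 CPM with DMSO (adjusted p = 0.0143). SLC1A5, a glutamine transporter, averaged 170.5 ± 32.9 CPM with PMA, 49.1 ± 15.8 CPM with SAHA and 290.8 ± 53.3 CPM with DMSO (adjusted p = 0.00662). ATF4 itself averaged 341.0 ± 62.2 CPM with PMA, 146.2 ± 23.9 CPM with SAHA and 497.2 ± 41.8 CPM with DMSO (adjusted p = 0.0211). The means of SLC1A5 and ATF4 were thus below DMSO with either agent. Without plate P2770 the adjusted p was 0.0941 for SLC3A2, 0.0715 for SLC1A5 and 0.108 for ATF4, and without P2771 it was 0.0889 for ATF4.

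Sterol genes were called in both directions. Of 28 tested members 2 were called higher with PMA and 3 higher with SAHA (median log2 change 0.03), beside 3.62% and 3.12% of all tested genes. INSIG1, which retains the sterol sensor SCAP in the endoplasmic reticulum, had 424.2, 448.8 and 407.4 CPM with PMA, against 1709, 1908 and 1563 CPM with SAHA and a mean of 529.4 CPM with DMSO (log2 change -2.0 ± 0.11, adjusted p = 0.000298). IDI1, the isomerase of the isoprenoid pathway, had 761.0, 560.8 and 712.2 CPM with PMA, against 2095, 2061 and 1940 CPM with SAHA and a mean of 627.2 CPM with DMSO (log2 change -1.58 ± 0.13, adjusted p = 0.00111). TM7SF2, a sterol reductase, averaged 45.1 ± 20.3 CPM with PMA and 138.4 ± 17.9 CPM with SAHA (adjusted p = 0.017). FDPS, the synthase that follows IDI1, went the other way, at 861.9 ± 60.4 CPM with PMA and 487.6 ± 47.2 CPM with SAHA (adjusted p = 0.017). TM7SF2 and FDPS were not called without plate P2770 (adjusted p = 0.12 and 0.11) or P2771 (0.0817 and 0.0749), and without either plate no member was called higher with PMA and 2 higher with SAHA.

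Glycolysis gave 3 called genes of 22 tested, 1 higher with PMA and 2 higher with SAHA, beside 3.62% and 3.12% of all tested genes. TPI1, triose-phosphate isomerase, had 1300, 1270 and 1427 CPM with PMA, against 4122, 3861 and 4265 CPM with SAHA and a mean of 1877 CPM with DMSO (log2 change -1.60 ± 0.09, adjusted p = 0.000298). GAPDH was lower with PMA at 7924 ± 650.7 CPM, against 11223 ± 152.4 CPM with SAHA (adjusted p = 0.0153), and PKM, pyruvate kinase, was higher at 1277 ± 590.6 CPM, against 808.7 ± 404.6 CPM (log2 change 0.70 ± 0.11, adjusted p = 0.0143), with the difference of PKM visible within plates and not between the group ranges. GAPDH and PKM were not called without plate P2770 (adjusted p = 0.093 and 0.0888) or P2771 (0.0622 and 0.0749), nor without the plate block (0.133 and 0.511). Of 18 purine salvage genes 1 was called, PNP, purine nucleoside phosphorylase, at 580.5 ± 30.3 CPM with PMA, 233.2 ± 21.2 CPM with SAHA and 206.8 ± 22.2 CPM with DMSO (log2 change 1.33 ± 0.15, adjusted p = 0.00399), a share near the 3.62% of all tested genes called in that direction.

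Actin-binding, S100, annexin and adhesion genes were called for 14 of 32 tested members, 12 higher with PMA and 2 higher with SAHA (median log2 change 1.04). TPM4, a tropomyosin, had 503.1, 700.1 and 692.1 CPM with PMA, against 96.9, 104.3 and 91.9 CPM with SAHA and a mean of 229.5 CPM with DMSO (log2 change 2.70 ± 0.17, adjusted p = 0.000396). CORO1A, the coronin of lymphocytes, had 1265, 1940 and 1696 CPM with PMA, against 362.8, 224.8 and 258.3 CPM with SAHA and a mean of 701.1 CPM with DMSO (log2 change 2.56 ± 0.25, adjusted p = 0.0025). ZYX, or zyxin, a focal adhesion protein, averaged 44 ± 14.4 CPM with PMA and 5.65 ± 2.66 CPM with SAHA (adjusted p = 0.0304), and was not called without any one of the plates (0.0654, 0.11 and 0.165 without P2769, P2770 and P2771). S100A9, which binds calcium in myeloid cells, was called (adjusted p = 0.00261) on 6.26, 2.62 and 399.9 CPM with PMA against 0 with SAHA, but 97.6% of its counts came from 1 well, and its adjusted p was 0.44 without plate P2771 and 0.064 without the plate block.

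Of 14 tested BCL2 family genes 3 were called, all higher with PMA, beside 3.62% of all tested genes. BIK, a pro-apoptotic member, averaged 141.1 ± 51 CPM with PMA and 33.9 ± 13.8 CPM with SAHA (adjusted p = 0.00752), BID, also pro-apoptotic, 162.1 ± 34.5 and 79.6 ± 9.96 CPM (adjusted p = 0.0426), and BCL2L1, which encodes the survival protein BCL-xL, 42.3 ± 6.51 and 7.84 ± 4.08 CPM (adjusted p = 0.0444). All 3 lost the call without plate P2770 (adjusted p from 0.0619 to 0.168), and BID and BCL2L1 also without P2769 (0.0949 and 0.0842) and P2771 (0.228 and 0.204), and BID without the plate block (0.059). Of 24 heat shock chaperones 3 were called, 1 higher with PMA and 2 higher with SAHA, beside 3.62% and 3.12% of all tested genes. HSPA8, the constitutive HSP70, averaged 2244 ± 150.7 CPM with PMA and 5281 ± 1789 CPM with SAHA (log2 change -1.17 ± 0.19, adjusted p = 0.018, and 0.0538 without plate P2770). TCP1, a chaperonin subunit, was lower with PMA (-0.51) and DNAJA1, an HSP70 partner, higher (0.54), with adjusted p of 0.0441 and 0.0466 that rose to 0.168 and 0.205 without plate P2770, to 0.269 and 0.115 without P2771, to 0.158 and 0.192 without the plate block and, for DNAJA1, to 0.116 without P2769.

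Translation genes differed by small amounts. The list of 78 cytoplasmic ribosomal protein genes had a median log2 change of -0.31. Of these genes 9 were called, all higher with SAHA, beside 3.12% of all tested genes. Their number was 4 without plate P2769, 3 without P2771 and 0 without P2770 or without the plate block. RPLP0, a stalk protein, had 1734, 1297 and 1181 CPM with PMA, against 2799, 2390 and 1871 CPM with SAHA (log2 change -0.73 ± 0.10, adjusted p = 0.00941). RPS2 (-0.95 ± 0.17) and RPL7A (-0.75 ± 0.12) were also called. Of 13 mitochondrially encoded genes 3 were called, all higher with SAHA, beside 3.12% of all tested genes. They were MT-ND4 (-0.57 ± 0.09), MT-CYB (-0.37 ± 0.07) and MT-CO1 (-0.33 ± 0.07). The plate values of PMA and SAHA overlapped for each of the 13. The calls of these 6 genes rest on the pairing by plate and on plate P2770. Without the plate block their adjusted p ran from 0.111 to 0.59, and without P2770 from 0.0766 to 0.201. RPL7A and the 3 mitochondrial genes were not called without P2771 (0.0872 to 0.237), nor RPS2 without P2769 (0.0613). None of 41 ribosome biogenesis and nucleolar genes was called by edgeR, with 7 at an unadjusted p under 0.05 and 5 called by DESeq2. NPM1 and NCL, the main nucleolar proteins, averaged 1207 ± 322.7 and 717.2 ± 231.7 CPM with PMA, 986.3 ± 188.04 and 586.8 ± 132.5 CPM with SAHA, while the DMSO means were 2399 ± 574.8 and 1630 ± 340.1 CPM. None of 10 genes of the MYC, MAX and MXD network was called by edgeR, with 2 at an unadjusted p under 0.05 and 2 called by DESeq2, and MYC itself averaged 11.5 CPM with PMA, 18.7 CPM with SAHA and 312.3 CPM with DMSO (adjusted p = 0.621, named after its value was seen). MLX and MGA of that network averaged 79.2 ± 25.4 and 41.9 ± 37.7 CPM with PMA, against 62.7 ± 7.05 and 37.6 ± 13.5 CPM with SAHA.

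**Figure D5:**
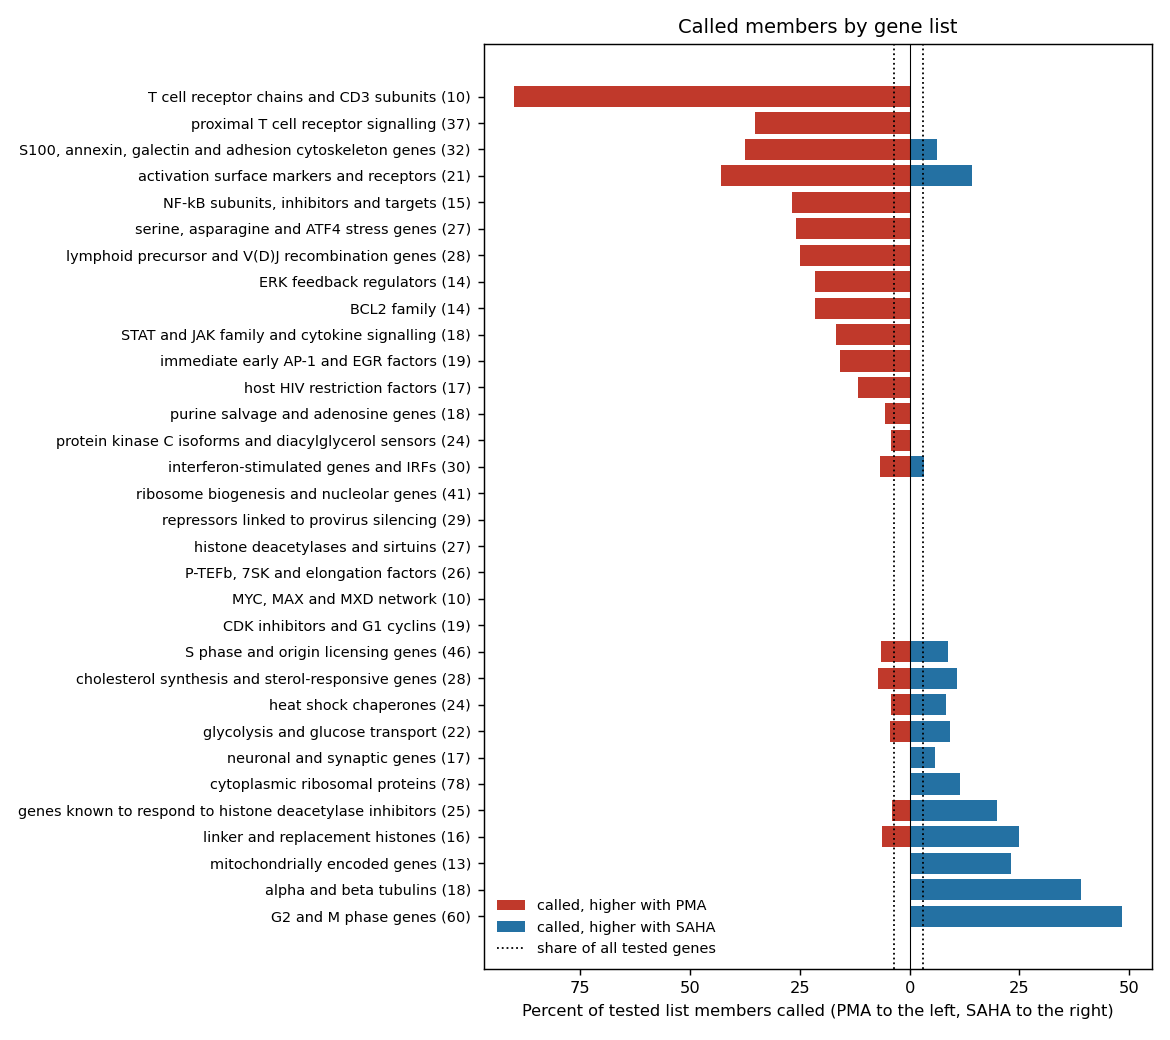
Percent of the tested members of each gene list that were called, higher with PMA to the left (red) and higher with SAHA to the right (blue), for lists with at least 10 tested members (their number in brackets). Dotted lines mark the shares over all tested genes, 3.62% for PMA and 3.12% for SAHA. The T cell receptor list (9 of 10) and the G2 and M list (29 of 60) lie at the ends.

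Markers of other cell types were checked because several leading genes belong to other tissues. HDC, MB and KRT1 are themselves members of these lists, so the summed levels below contain them and are not independent of them. Of 15 myeloid and mast cell markers 2 were tested, HDC and S100A9, and both were called. The summed level over plates was 173.8 to 722.6 CPM with PMA, 0.456 to 16.1 CPM with SAHA and 0 to 3.47 CPM with DMSO. The PMA sums include S100A9, most of whose counts came from a single well, as given above. The defining markers CD14, ITGAM, MPO, FCER1A and TPSAB1 were at 0 with both agents, and 9 of the 15 had no count with either. Of 11 epithelial and muscle markers 4 were tested, of which MB and KRT1 were called. The sums were 491.9 to 904.6 CPM with PMA, 11.9 to 41.4 CPM with SAHA and 0.151 to 8.8 CPM with DMSO, and EPCAM, CDH1, MYH7 and DES were at 0 with both agents. Of 10 B cell markers 2 were tested, of which CD79A was called, at 88.9 ± 37.3 CPM with PMA, 8.41 ± 4.29 CPM with SAHA and 65.6 ± 35.4 CPM with DMSO (log2 change 3.41 ± 0.48, adjusted p = 0.0102, and 0.0693 without plate P2770). The B cell sums were 45.8 to 113.95 CPM with PMA, 13.3 to 25.9 CPM with SAHA and 39.4 to 105.9 CPM with DMSO, and MS4A1 and PAX5 were at 0. Of 10 erythroid and megakaryocyte markers 2 were tested, and none was called by edgeR, with 1 at an unadjusted p under 0.05 and 1 called by DESeq2. The sums were 10 to 15.4 CPM with PMA, 24.9 to 36.4 CPM with SAHA and 7.55 to 21.7 CPM with DMSO. HBA2, an alpha globin with a near-identical copy, had 0 counts with PMA and 5.29, 5.12 and 9.45 CPM with SAHA, in 24 of 68 wells (adjusted p = 0.128), EPOR, the erythropoietin receptor, was at 13.1 and 21.5 CPM (adjusted p = 0.641), and HBB was at 0.

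Parental Jurkat cells on the same plates, with 36 kept wells for each agent, allow the same comparison without the construct. The line by treatment interaction, fitted on 12 sums, was called for 11 of 11380 genes (0.0967%), and for 0 genes when plates were not blocked, with 654 at an unadjusted p under 0.05. None of the 11 was called by edgeR when any one plate was left out, with 871, 627 and 579 genes at an unadjusted p under 0.05 without P2769, P2770 and P2771, while DESeq2 on all plates called all 11. Of the 24 leading genes above, 23 had a log2 change of the same sign in Jurkat. Among those 23, GPR183, IFIT1, CAMK4, CLU and ASMTL were not called in Jurkat by edgeR in the fit of 12 sums (adjusted p from 0.0571 to 0.202). The share of all tested genes with the same sign in both lines was not computed. HDC had 299.1, 276.7 and 325.8 CPM with PMA in Jurkat cells and 0 with SAHA. MB was lower there, at 2.69, 78.6 and 20.1 CPM with PMA and with 1 count in the SAHA wells, though the difference between lines was not called (adjusted p = 0.889). The exception was DHRS2, which had no count in any of 36 Jurkat PMA wells or 36 Jurkat SAHA wells, so no fold is given and its difference between lines was not called (adjusted p = 1). CGREF1 had 0 CPM with PMA and 15.8, 19.4 and 29 CPM with SAHA in Jurkat cells. In the summed G2 and M level, 22 of 36 Jurkat PMA wells (61.1%) and 0 of 36 Jurkat SAHA wells lay below the lowest J-Lat A2 DMSO well.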

How the data were processed

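Single cells were sorted into wells, reverse transcribed with template switching, amplified by PCR and fragmented with Nextera XT, per the labels' protocols, which give no molecular identifiers. The authors deposited 1 table of expected counts, with a gene a row and a well a column, made with Salmon 1.5.1 and alevin against GRCh38.p13, per the submitters' processing notes. Neither the counting settings nor the stretch of the construct behind HIVmini is given in the sources used here. The table has 20302 features, of which 19719 matched a symbol, and 13.7% of its values above 0 are not whole.

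Wells were filtered and summed per treatment and plate, and the sums were rounded to whole counts. A sum held between 11231349 and 13663433 counts with PMA, and between 11724331 and 12248150 with SAHA. No pair of wells held identical values. Genes passing edgeR's filterByExpr were tested with edgeR 4.0.16 (R 4.3.3), using TMM factors, the quasi-likelihood test and plate as a block, on the 3 PMA and 3 SAHA sums, with Benjamini-Hochberg adjustment over 10570 genes. Every adjusted p is from this test unless another is named, a gene is called below 0.05, and the SE of a log2 change is its size divided by the square root of F. Levels are TMM-scaled CPM over the sums of all 6 groups of line and treatment. The block rests on shared plates: deviations of PMA and SAHA sums of the same plate correlated at 0.26, 0.12 and 0.14 over 5871 genes. Across plates, PMA of P2771 with SAHA of P2770 gave 0.11 and PMA of P2770 with SAHA of P2771 gave 0.08. The pairs of P2769 with another plate gave -0.18 to -0.14. The model had 2 residual degrees of freedom and 4.81 prior ones. Doublets were not called. Where a gene had no count with one agent, the fold is a bound against 3 counts over that group.

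Members and gene lists were chosen with earlier results of these data known. Named genes were HIVmini, the 12 genes with the largest change in each direction that were called with at least 20 CPM, in at least 20% of wells and with no well holding most of the counts, and, from each list, the 4 called members with the largest change and at least 20 CPM (the 2 most abundant members where none was called); genes outside this rule are marked in the text. Some genes the rule names are not reported here. The line by treatment interaction was fitted on 12 sums in the same way. Alternatives were other size factors, DESeq2 1.42.0, other filters on genes and wells, no block, all groups in 1 fit, sums per batch over the 5 plates of both batches, equal weight per well with limma 3.58.1, and leaving out each plate. The scripts were tested on simulated data. Motif searches used RefSeq promoters.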

Additional observations from a re-analysis of the deposited data

Results flagged for a closer look

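The change of PMA over SAHA differed between J-Lat A2 and Jurkat cells for 11 genes by the interaction term of edgeR's quasi-likelihood test (0.0967% of 11380). The difference given for each is J-Lat A2 minus Jurkat on the log2 scale.

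In 5 of them the change was more positive in J-Lat A2. CTSG, the granule protease cathepsin G, differed by 2.68 (adjusted p = 0.0397), with 210.4 CPM with PMA and 19.2 CPM with SAHA in J-Lat A2, and 94.4 and 56.3 CPM in Jurkat. WARS1, a tRNA synthetase, differed by 1.62 (adjusted p = 0.0145), with 582.5 and 279.4 CPM in J-Lat A2 and 183.5 and 270.9 CPM in Jurkat. HMGN2, a nucleosome-binding protein, differed by 1.43 (adjusted p = 0.0364), with 2535 and 2029 CPM in J-Lat A2 and 1860 and 3971 CPM in Jurkat. The cytoplasmic actins ACTG1 and ACTB, which share most of their sequence, differed by 1.38 and 1.13 (adjusted p = 0.00721 and 0.0397). ACTB was higher with PMA in both lines, and ACTG1 was lower with PMA at 5611 against 7524 CPM with SAHA in J-Lat A2, and at 3716 against 12863 CPM in Jurkat.

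In 6 the change was more negative in J-Lat A2. INSIG1 and IDI1, both of the sterol pathway, differed by -1.01 and -1.52 (adjusted p = 0.0364 and 0.0145). IDI1 stood at 677.99 CPM with PMA and 2032 CPM with SAHA in J-Lat A2, and at 878.5 and 916.6 CPM in Jurkat. RCBTB2 differed by -1.64 (adjusted p = 0.0476), with 225.7 and 30.8 CPM in J-Lat A2 and 2018 and 83.7 CPM in Jurkat, and overlaps RB1 on the opposite strand. AHI1 differed by -1.94 (adjusted p = 0.0364), with 62.4 and 125.5 CPM in J-Lat A2 and 180.5 and 94.2 CPM in Jurkat. RBM48 differed by -2.31 (adjusted p = 0.0364), with 69 and 76.8 CPM in J-Lat A2 and 628.4 and 141.9 CPM in Jurkat. GBP1, an interferon-induced GTPase, differed by -8.80 (adjusted p = 0.0364), a fitted value that depends on the prior count because GBP1 had no count with SAHA in Jurkat. Each of the 11 kept its direction under every alternative run, and 0 genes were called without the plate block or without plate P2770 or P2771 (654, 627 and 579 at an unadjusted p under 0.05). Without plate P2769 2 genes were called, neither of them among the 11.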

How the results depend on the processing

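All genes called higher with PMA (383) or with SAHA (330) kept their direction under every alternative in which they were tested, but their number did not keep its size. As percent of tested genes, the calls higher with PMA and with SAHA were 3.62% and 3.12%, and became 9.81% and 8.83% with DESeq2 (1970 calls in all, against 713), 6.52% and 5.55% with equal weight per well (1276 calls), and 9% and 8.18% among genes of at least 20 CPM, where fewer genes were tested. They became 2.25% and 1.37% for sums per batch, where more genes were tested (491 calls). In that fit PMA had 1 sum, since PMA wells were in 1 batch, and this lone sum is assumed to vary like the groups with sums from both batches. Without the replicate block, calls higher with PMA stayed within 1.5 times at 3.01%, and those higher with SAHA fell to 1.82% (510 calls). Leaving out each plate gave 1.07 to 3.24% higher with PMA and 0.514 to 2.6% higher with SAHA, from 170 calls without P2770 to 359 without P2771 and 638 without P2769. The cause of these shifts was not tested beyond the smaller number of plates.

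HIVmini stayed lower with PMA under every alternative. It passed the threshold with a log2 change of -1.0 without a filter and among genes of at least 20 CPM, -1.02 with all groups in the fit, -1.13 for sums per batch and -1.05 with equal weight, and ranged from -1.27 to -0.55 when a plate was left out. With DESeq2 it missed the threshold (-1.02, adjusted p = 0.228). The difference in the share of wells with a count was 0 percentage points over all wells and ranged from -9.97 to 1.8 when a plate was left out. The interaction calls were 0.0967% of tested genes, 1.66% with DESeq2, 0.203% among genes of at least 20 CPM, 0 without the replicate block, and 0 to 0.0172% when a plate was left out. Genes named without a call that changed sign were CBX3 (-0.16 to 0.08), SUPT16H (-0.00094 to 0.42) and TCEA1 (-0.22 to 0.14) when a plate was left out, RB1 at 0.03 for sums per batch, and MGA at 0.18 without the replicate block, 0.15 for sums per batch and -1.64 to 0.97 when a plate was left out. Of 100 named calls, 38 were kept under every alternative, 57 were lost without P2770, 30 without P2771, 11 without P2769, 24 without the block and 21 for sums per batch. Losses of single calls are named in the passages above only for a plate left out or for no block. Those passages leave out losses in the other fits, among them sums per batch with its lone PMA sum. With 3 plates of 1 batch, cells of 1 clone, and reads without molecular identifiers, low genes in few wells carry the least certain values.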

Other observations

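Some of the best separated genes lay outside the lists or the rule for named genes and were chosen after their values were seen. PTPN7, a phosphatase of lymphocytes that acts on ERK and p38, averaged 759.1 ± 84.6 CPM with PMA, 35.1 ± 7.11 CPM with SAHA and 206.1 ± 22.7 CPM with DMSO (SD, 3 plates each), a log2 change of 4.47 ± 0.16 with an adjusted p of 7.14e-05. PTPRC, the phosphatase CD45, averaged 670.4 ± 116.2 CPM with PMA, 65.5 ± 16 CPM with SAHA and 180.1 ± 18.1 CPM with DMSO (log2 change 3.38 ± 0.15, adjusted p = 0.000131). PFN1, the actin-binding profilin, averaged 5600 ± 726.4 CPM with PMA, 1355 ± 303.1 CPM with SAHA and 2253 ± 331.2 CPM with DMSO (log2 change 2.08 ± 0.11, adjusted p = 0.000242). All 3 were higher with PMA on each plate, and their DMSO means lay between those of the agents.

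The DMSO level took a different place in each direction of the comparison. Among the 330 genes called higher with SAHA, DMSO was closer to the PMA level for 73.6% on the log2(CPM + 1) scale. Among the 383 genes called higher with PMA, it was closer to the SAHA level for 48.6%. The difference between these shares was not tested.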
